A study of Mus musculus with 9 samples.

Results

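Transcripts of 34 genes of macrophages and of MHC class II antigen presentation were followed in mouse islets, the hormone-secreting clusters of the pancreas. The genes were listed by name, with earlier results of these data known, and all 34 were found among the 56941 genes of the deposited count table. The list held 7 genes of the MHC class II pathway and 27 genes that mark macrophages or work in them. Enough counts for a test were present for 33 of the 34, among 18548 genes tested. The exception was Vsig4, a complement receptor of tissue macrophages, with 10 pooled counts on the low fat diet, 2 on the high fat diet and 1 on the ketogenic diet.

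The study compared 3 diets to learn how a ketogenic diet alters gene expression in islets. All animals were wild-type male C57Bl/6J mice, aged 15 weeks when the feeding began, and the feeding lasted 9 months. Of the 9 libraries, 3 came from the control diet low in fat (LFD, 10% fat), 2 from the high fat diet (HFD, 60% fat) and 4 from the ketogenic diet (KD, 89.9% fat). Polyadenylated RNA of islets that were isolated at the end of feeding was sequenced. The labels do not say whether a library came from 1 mouse or from pooled mice, so p-values measure the spread between these samples. No batch or isolation date is given in the labels used here, so a batch and a diet cannot be told apart.

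Macrophages live inside islets as their most common resident immune cell, where they take up material shed by beta cells and present peptides from it. In that pathway the class II alpha and beta chains are assembled with the invariant chain Cd74, proteases such as cathepsin S trim the invariant chain, H2-DM exchanges the remaining fragment for a peptide, and Ciita is the master activator of the genes involved. B cells and dendritic cells use the same pathway, whereas Csf1r, Adgre1, Mpeg1, Lyz2 and the C1q chains are known mainly from macrophages and related myeloid cells.

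Promoters of class II genes share 2 elements, the X box bound by the RFX complex and the Y box bound by NF-Y, and Ciita acts through the proteins assembled there. The 150 bases before the annotated start are shown for the 3 class II members in which both sets of letters occurred. They were picked because Ciita, which acts at these elements, was lower on KD than on LFD. H2-DMb1 and H2-Aa were lower too, whereas H2-Eb1 did not pass (edgeR adjusted p 0.0861). A link between these levels was not tested. The sequences come from the RefSeq promoter table of build GRCm38.p6, at chr17:34153041-34153190 on the plus strand for H2-DMb1, chr17:34287824-34287973 on the minus strand for H2-Aa and chr17:34305717-34305866 on the plus strand for H2-Eb1. Each is written 5′ to 3′ on the strand of its gene, and capitals mark the letters GNAACT, which stand for the X box, and GATTGG, which stand for the Y box and hold the reverse complement of CCAAT. Matches on the opposite strand were left in lower case, though the shares given below count them.
H2-DMb1: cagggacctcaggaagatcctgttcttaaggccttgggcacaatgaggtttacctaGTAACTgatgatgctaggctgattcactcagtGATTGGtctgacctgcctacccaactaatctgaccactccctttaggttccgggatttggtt
H2-Aa: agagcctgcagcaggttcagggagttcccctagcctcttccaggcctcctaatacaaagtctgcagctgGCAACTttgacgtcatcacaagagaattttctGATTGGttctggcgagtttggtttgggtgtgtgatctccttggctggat
H2-Eb1: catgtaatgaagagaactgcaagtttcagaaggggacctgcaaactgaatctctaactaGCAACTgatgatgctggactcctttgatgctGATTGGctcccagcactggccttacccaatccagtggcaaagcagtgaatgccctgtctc
The X letters start 32, 32 and 31 bases before the Y letters in H2-DMb1, H2-Aa and H2-Eb1. Over the same window of all 32851 promoters in the table, searched on both strands, GNAACT was present in 23.65% and GATTGG in 10.94%. Both in that order on 1 strand, with starts no more than 40 bases apart, were present in 108 promoters (0.3288%). The table matched 23 of the 34 members with 27 promoters, and the 3 shown were the only matched members with the pair. Of the 7 class II members 4 were matched, the 3 shown and H2-DMa. Cd74, H2-Ab1 and Ciita had no entry, so their promoters were not searched. The letters were chosen after these sequences had been seen, the motifs do not overlap each other, and a match describes letters and not binding.

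Library totals ran from 15513502 to 26588390 counts, and levels are given as CPM, the counts per 1000000 counts of a library's TMM-scaled size, in replicate order. Ins2, the main insulin gene of mice, measured between 17778 and 66138 CPM, so every library held islet transcripts. Genes of acinar cells, the exocrine tissue around islets, took 36.1, 25.3 and 15.2% of counts on LFD, 19.1 and 11.4% on HFD and 61.3, 45.1, 56.9 and 20.6% on KD (30 genes, most of them for digestive enzymes). A list of 13 B cell genes summed to 549, 1291 and 78.7 on LFD, 56.1 and 74.9 on HFD and 26.1, 10.8, 6.23 and 12.4 on KD, in CPM. Summed CPM of the 7 class II members was 374, 692 and 237 on LFD, 248 and 337 on HFD and 155, 201, 114 and 221 on KD. The sum of the other 27 members was 238, 313 and 157 on LFD, 186 and 233 on HFD and 111, 124, 82.6 and 143 on KD. Both sums were highest in LFD replicate 2, the library with the most B cell transcripts, and in both the 4 KD libraries lay below all LFD and HFD libraries. A lower level in such bulk tissue cannot tell fewer cells of a type from less RNA per cell.

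**Figure D1:**
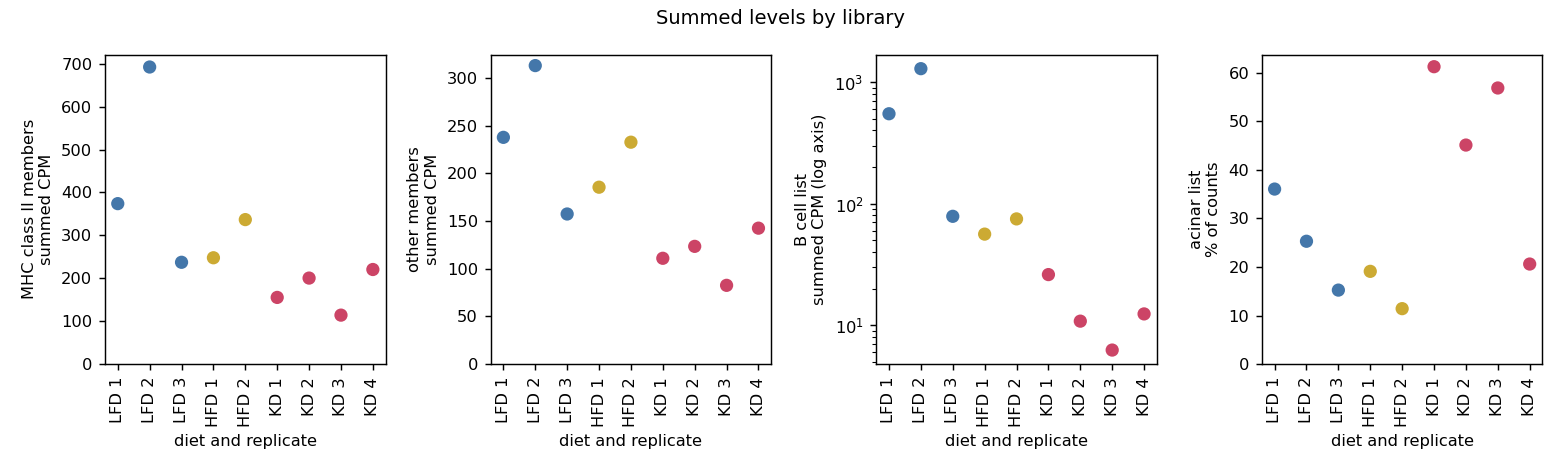
Summed levels in each library, coloured by diet, as points: CPM of the 7 MHC class II members, CPM of the 27 other members, CPM of 13 B cell genes on a log axis, and the percent of counts from 30 acinar genes. KD libraries lie lowest in the first 3 panels, and LFD replicate 2 lies highest in each of those 3.

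With edgeR's quasi-likelihood test, adjusted by the Benjamini-Hochberg method over all genes tested, 7 of 33 members were lower on KD than on LFD at an adjusted p below 0.05 and 0 were higher. Over all genes 4.12% were called, 3.14% lower and 0.981% higher, which is the background for that count. These 7 were H2-Aa, H2-DMb1 and Ciita of the class II pathway, and Mpeg1, Cd86, Lyz2 and Ctss among the other members. An unadjusted p below 0.05 with a lower level was found for 21 members, against 11.9% of all genes. KD and LFD libraries did not overlap for 15 tested members, all lower on KD, against 10.1% of all genes. The median log2 fold change of the members was -1.13, whereas that of all genes was -0.02. Without LFD replicate 2 the members' median was -0.64. All 33 members' values were below 0, against 51.9% of all genes. The members and the further lists below were chosen with earlier results of these data known. Shares over all genes are therefore given for scale, and an excess over them is not independent support.

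Single libraries decided the count of 7. Leaving out LFD replicates 1, 2 and 3 in turn gave 2, 3 and 15, where 0.938, 1.02 and 5.0% of all genes were called. It was 4, 3, 3 and 9 without KD replicates 1 to 4, where 2.09, 1.08, 0.814 and 7.24% of all genes were called. It was 5 without either HFD library, which help set the spread in the fit, with 3.04 and 3.0% of all genes called. Ciita and Cd86 passed in each of these 9 omissions. DESeq2 called 15 members and limma-voom 14, where they called 9.56% and 10.1% of all genes.

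**Figure D2:**
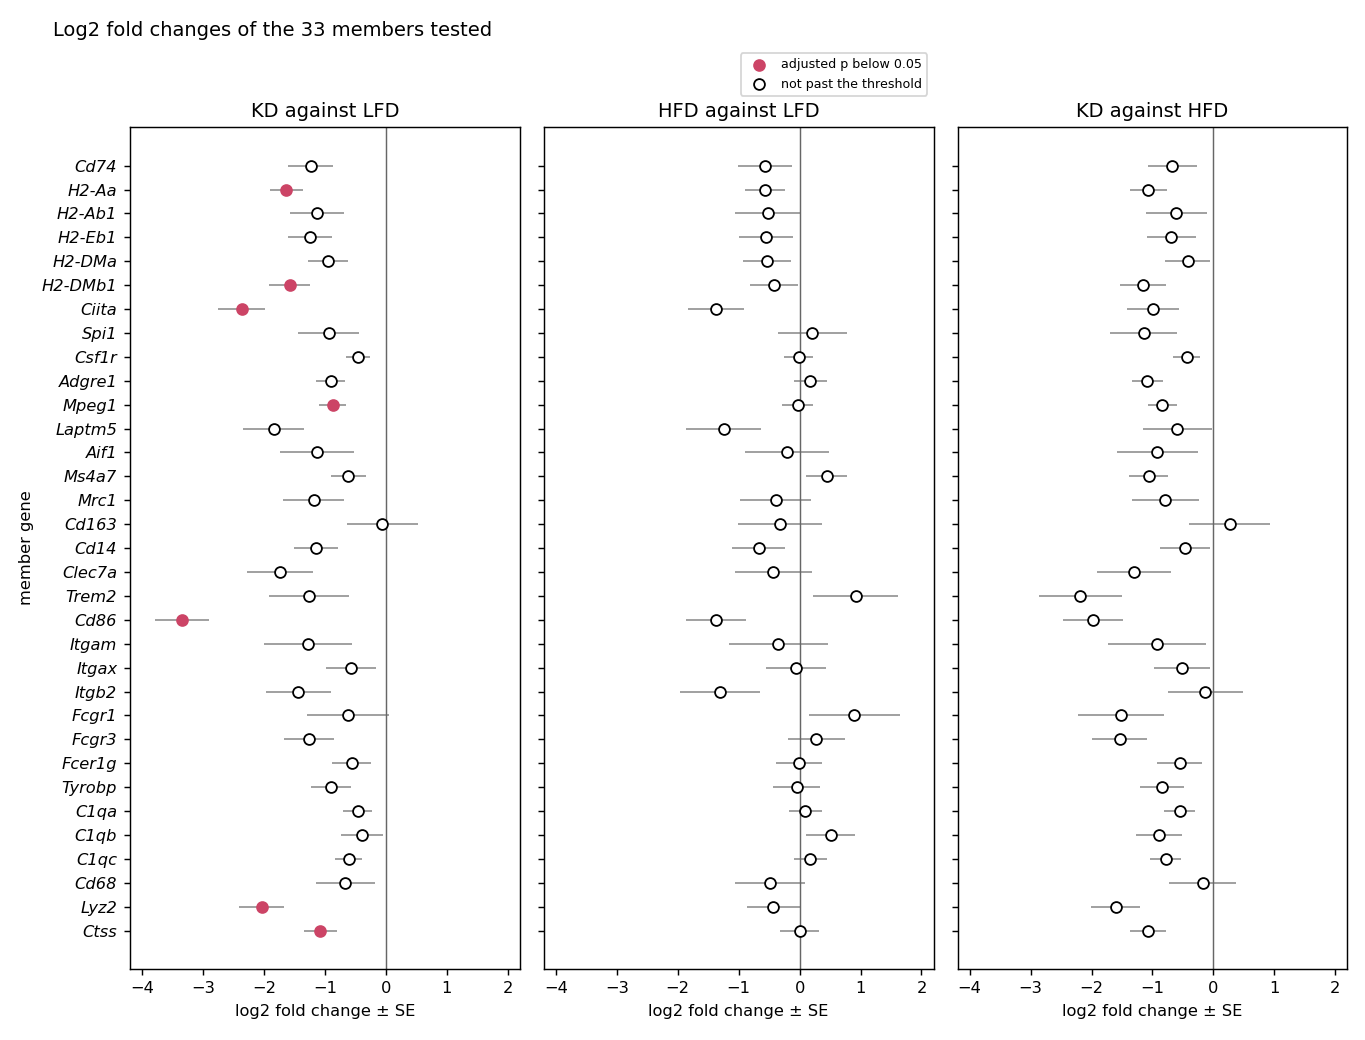
Log2 fold changes of the 33 members tested, one row per gene, with bars of 1 SE, for KD against LFD, HFD against LFD and KD against HFD. Filled points passed an adjusted p of 0.05 by edgeR: 7 in the first panel, all below 0, and 0 in the others.

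The 7 class II members had log2 fold changes from -2.36 to -0.95 for KD against LFD, and 3 of them passed the threshold. Ciita (ENSMUSG00000022504), the transactivator, measured 8.28, 20.7 and 8.16 CPM on LFD, 3.65 and 5.91 CPM on HFD and 2.96, 3.07, 1.42 and 2.06 CPM on KD. All 4 KD libraries lay below both HFD libraries, and these below the 3 LFD libraries. Ciita fell with a log2 fold change of -2.36 (SE 0.38, edgeR adjusted p 0.0119), a level 5.15-fold lower, and the fold change was -1.77 without LFD replicate 2.
H2-Aa (ENSMUSG00000036594), the alpha chain of the I-A molecule, measured 104, 141 and 62.6 CPM on LFD, 70 and 68.7 CPM on HFD and 26.1, 37.5, 24 and 44.5 CPM on KD. The highest KD library was below the lowest library of either other diet. H2-Aa fell with a log2 fold change of -1.63 (SE 0.27, edgeR adjusted p 0.0138). Without LFD replicate 1 its adjusted p was 0.0512, and it passed in the other 8 omissions.
H2-DMb1 (ENSMUSG00000079547), the beta chain of the peptide exchange factor H2-DM, measured 5.52, 4.7 and 2.11 CPM on LFD, 2.95 and 3.14 CPM on HFD and 1.32, 1.47, 1.16 and 1.48 CPM on KD. The KD libraries lay close together and under all the others. H2-DMb1 fell with a log2 fold change of -1.58 (SE 0.34, edgeR adjusted p 0.0292), and its adjusted p was higher than 0.05 in 5 omissions, at 0.124 and 0.0856 for LFD replicates 1 and 2 and at 0.0617, 0.0756 and 0.0862 for KD replicates 1 to 3. It has a very similar neighbour gene, H2-DMb2, and how reads shared by both were counted is not given in the sources used here.

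The other 4 class II members had an unadjusted p below 0.05 and missed the adjusted threshold. Cd74 (ENSMUSG00000024610), the invariant chain, had the highest level of all members at 148, 305 and 101 CPM on LFD, 98.6 and 152 CPM on HFD and 69.6, 94.7, 50.4 and 99 CPM on KD. Its KD and LFD libraries did not overlap, though LFD replicate 3 and KD replicate 4 nearly met. Cd74 had a log2 fold change of -1.23 (SE 0.36, edgeR adjusted p 0.089).
H2-Ab1 (ENSMUSG00000073421), the beta chain that pairs with H2-Aa, measured 43, 97.9 and 24.3 CPM on LFD, 31.2 and 45.4 CPM on HFD and 24.1, 26.6, 14.8 and 34.5 CPM on KD. LFD replicate 3 lay within the KD range. H2-Ab1 had a log2 fold change of -1.13 (SE 0.44, edgeR adjusted p 0.176), which moved to -0.42 without LFD replicate 2.
H2-Eb1 (ENSMUSG00000060586), the beta chain of the class II molecule I-E, measured 59.8, 113 and 35.2 CPM on LFD, 36.7 and 57.8 CPM on HFD and 28.2, 33.1, 19.6 and 35.9 CPM on KD. LFD replicate 3 was again the low LFD library, just under KD replicate 4. H2-Eb1 had a log2 fold change of -1.24 (SE 0.36, edgeR adjusted p 0.0861), and reads shared with its paralog H2-Eb2 make its counts uncertain in the same way.
H2-DMa (ENSMUSG00000037649), the alpha chain of H2-DM, measured 4.91, 10.4 and 3.85 CPM on LFD, 4.75 and 4.11 CPM on HFD and 3.27, 4.1, 2.76 and 3.0 CPM on KD. KD replicate 2 lay above LFD replicate 3. H2-DMa had a log2 fold change of -0.95 (SE 0.33, edgeR adjusted p 0.12).

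**Figure D3:**
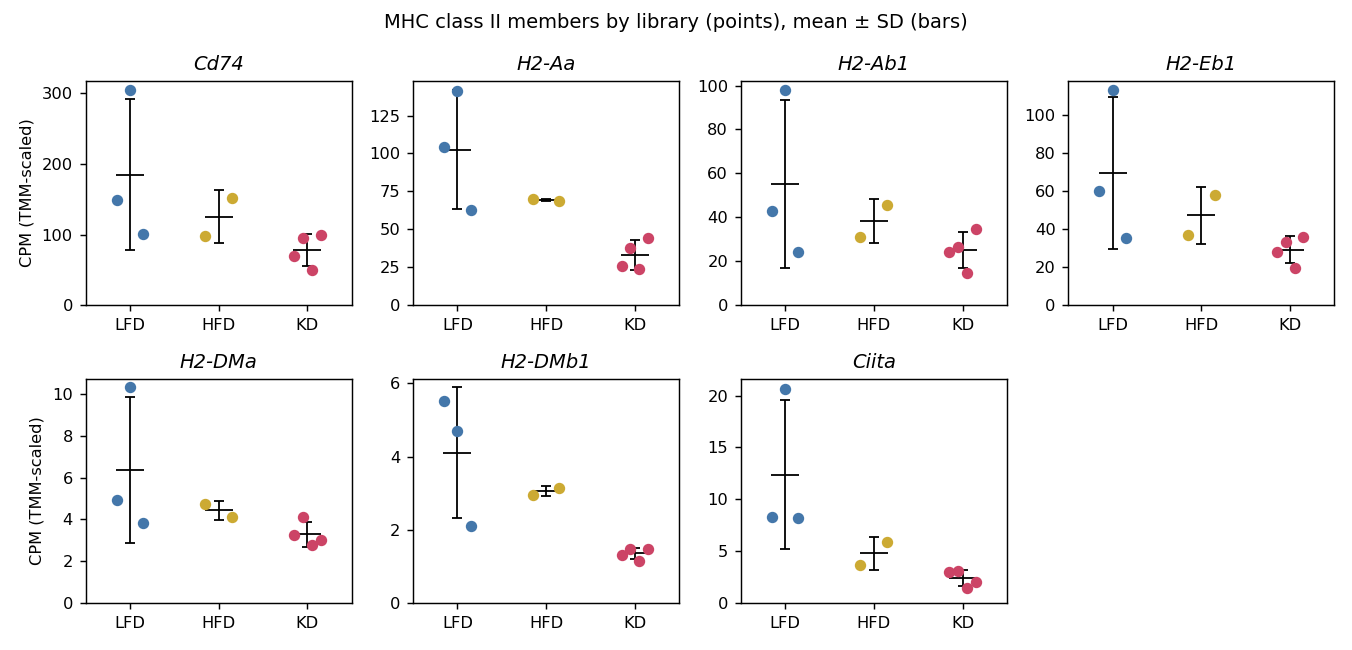
CPM of the 7 MHC class II members in each library (points) with the mean and SD of each diet (bars), on axes that start at 0. For H2-Aa, H2-DMb1, Ciita and Cd74 the 4 KD libraries lie below the 3 LFD libraries, and LFD replicate 2 is the highest library in 6 of the 7 panels, H2-DMb1 being the exception.

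Among the 7 members that mark the lineage, Mpeg1 passed the threshold and the other 6 did not. Mpeg1 (ENSMUSG00000046805), which encodes the pore-forming protein perforin-2 of macrophages, measured 29.4, 38.2 and 23.8 CPM on LFD, 29.7 and 29.9 CPM on HFD and 12.1, 17, 14.3 and 22.7 CPM on KD. KD replicate 4 came closest to LFD, just under LFD replicate 3. Mpeg1 fell with a log2 fold change of -0.87 (SE 0.22, edgeR adjusted p 0.0458), and it passed without LFD replicate 3 or KD replicate 4 but in none of the other 7 omissions, where the adjusted p ran from 0.0718 to 0.136.
Adgre1 (ENSMUSG00000004730), the F4/80 antigen of mature mouse macrophages, measured 9.93, 7.75 and 5.77 CPM on LFD, 8.65 and 9.01 CPM on HFD and 4.51, 3.47, 3.47 and 5.15 CPM on KD. The KD libraries lay below all 5 others. Adgre1 had a log2 fold change of -0.90 (SE 0.24, edgeR adjusted p 0.0567).
Csf1r (ENSMUSG00000024621), the receptor for the growth factor on which macrophages depend, measured 18.5, 17.6 and 14 CPM on LFD, 14 and 19 CPM on HFD and 13, 13.5, 8.46 and 13.4 CPM on KD. Its libraries did not overlap between KD and LFD, and the difference was among the smallest of the members. Csf1r had a log2 fold change of -0.46 (SE 0.20, edgeR adjusted p 0.203).
Laptm5 (ENSMUSG00000028581), a lysosomal membrane protein of blood cells in general, measured 12.9, 40.3 and 7.18 CPM on LFD, 6.6 and 10.3 CPM on HFD and 5.21, 6.5, 4.01 and 6.59 CPM on KD. LFD replicate 2 stood far above the rest. Laptm5 had a log2 fold change of -1.84 (SE 0.50, edgeR adjusted p 0.0726), which moved to -0.83 without that library.

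Spi1 (ENSMUSG00000002111), the transcription factor PU.1 of myeloid and B cells, measured 1.66, 2.82 and 0.75 CPM on LFD, 1.25 and 2.77 CPM on HFD and 1.24, 0.802, 0.534 and 1.03 CPM on KD. Ms4a7 (ENSMUSG00000024672), a membrane protein of tissue macrophages, measured 2.02, 2.55 and 3.1 CPM on LFD, 4.15 and 2.85 CPM on HFD and 1.87, 1.83, 1.51 and 1.48 CPM on KD. Aif1 (ENSMUSG00000024397), the cytoskeletal protein Iba1, measured 1.29, 2.02 and 0.516 CPM on LFD, 1.55 and 0.67 CPM on HFD and 0.156, 0.535, 0.802 and 0.807 CPM on KD. Only Ms4a7 of these 3 had KD libraries that all lay below LFD, and their log2 fold changes of -0.94, -0.62 and -1.13 in that order had unadjusted p of 0.05 or more.

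Of the lysosomal enzymes and proteins, Lyz2 and Ctss were lower on KD and Cd68 did not pass. Lyz2 (ENSMUSG00000069516), the lysozyme of myeloid cells, measured 46.7, 49.2 and 15.4 CPM on LFD, 24.2 and 30.7 CPM on HFD and 11, 10.2, 5.25 and 9.41 CPM on KD. The KD libraries lay below all others, and LFD replicate 3 was far below the other LFD libraries. Lyz2 fell with a log2 fold change of -2.04 (SE 0.37, edgeR adjusted p 0.021). Omitting LFD replicates 1 and 2 in turn moved its edgeR adjusted p to 0.0744 and 0.0697, omitting KD replicates 2 and 3 moved it to 0.0593 and 0.057, and it was 0.0765 when no genes were filtered out.
Ctss (ENSMUSG00000038642), cathepsin S, which trims the invariant chain, measured 22.1, 34 and 20.9 CPM on LFD, 22.1 and 29.3 CPM on HFD and 8.33, 13, 9.26 and 17.7 CPM on KD. The HFD libraries lay within the LFD range, and the KD libraries lay under it. Ctss fell with a log2 fold change of -1.07 (SE 0.27, edgeR adjusted p 0.0488), the value nearest the threshold, and passed only without LFD replicate 3 or KD replicate 4 among the 9 omissions, with adjusted p from 0.0688 to 0.137 in the others. When TMM left out acinar and hormone genes its adjusted p was 0.0507.
Cd68 (ENSMUSG00000018774), a lysosomal glycoprotein used to stain macrophages, measured 2.76, 2.96 and 0.985 CPM on LFD, 1.15 and 2.01 CPM on HFD and 1.32, 1.87, 0.534 and 1.75 CPM on KD. Those ranges overlapped, and its log2 fold change was -0.66.

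Cd86 showed the largest fold change of the members. Cd86 (ENSMUSG00000022901), a costimulatory ligand of antigen-presenting cells that engages Cd28 on T cells, measured 3.43, 4.57 and 2.95 CPM on LFD, 1.05 and 1.76 CPM on HFD and 0.156, 0.579, 0.178 and 0.403 CPM on KD. The 3 diets formed separate ranges in the order LFD, HFD and KD. Cd86 fell with a log2 fold change of -3.34 (SE 0.44, edgeR adjusted p 0.00494), a level 10.1-fold lower, from 221 pooled counts in 3 LFD libraries against 26 in 4 KD libraries.

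None of the surface receptors for lipids, sugars, microbial ligands or haemoglobin passed. The log2 fold changes of those tested were all below 0, from -1.73 for Clec7a to -0.05 for Cd163. Mrc1 (ENSMUSG00000026712), the mannose receptor, measured 7.66, 8.69 and 3.85 CPM on LFD, 4.95 and 5.28 CPM on HFD and 4.9, 3.56, 0.534 and 2.73 CPM on KD. KD replicate 3 was far below the rest and KD replicate 1 above LFD replicate 3. Mrc1 had a log2 fold change of -1.18 (SE 0.50, edgeR adjusted p 0.192).
Cd14 (ENSMUSG00000051439), the coreceptor for lipopolysaccharide, measured 14.7, 9.5 and 5.86 CPM on LFD, 5.75 and 6.79 CPM on HFD and 6.69, 5.61, 3.12 and 2.69 CPM on KD. Cd14 had a log2 fold change of -1.14 (SE 0.36, edgeR adjusted p 0.0993), and KD replicate 1 overlapped LFD replicate 3.
Clec7a (ENSMUSG00000079293), the beta-glucan receptor dectin-1, measured 2.88, 5.15 and 0.938 CPM on LFD, 2.05 and 2.39 CPM on HFD and 0.311, 1.25, 1.07 and 0.896 CPM on KD. Clec7a had a log2 fold change of -1.73 (SE 0.54, edgeR adjusted p 0.0957), again with LFD replicate 3 inside the KD range. Without LFD replicate 2 it was -1.07.
Trem2 (ENSMUSG00000023992), a lipid-sensing receptor, measured 0.858, 0.269 and 0.61 CPM on LFD, 0.65 and 1.51 CPM on HFD and 0.0778, 0.223, 0.178 and 0.403 CPM on KD. Cd163 (ENSMUSG00000008845), the receptor for haptoglobin-bound haemoglobin, measured 1.9, 1.61 and 0.61 CPM on LFD, 0.75 and 1.42 CPM on HFD and 2.88, 1.02, 0.623 and 0.807 CPM on KD. KD and LFD overlapped for both, and their log2 fold changes were -1.26 and -0.05, the latter the smallest of all members. Cd163 moved to -0.71 without KD replicate 1 and to 0.22 without LFD replicate 1. Vsig4 (ENSMUSG00000044206) was near the limit of detection at 0.184, 0.224 and 0.0938 CPM on LFD, 0.10 and 0 CPM on HFD and 0.0778, 0, 0 and 0 CPM on KD, and no fold is given for it.

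No integrin or Fc receptor gene passed the threshold for KD against LFD. Itgb2 (ENSMUSG00000000290), the common beta chain of the leukocyte integrins, measured 6.13, 20.4 and 3.89 CPM on LFD, 3.5 and 4.73 CPM on HFD and 6.07, 3.21, 4.01 and 2.02 CPM on KD. LFD replicate 2 stood above all other libraries, and KD replicate 1 came close to LFD replicate 1. Itgb2 had a log2 fold change of -1.43 (SE 0.54, edgeR adjusted p 0.15), which moved to -0.41 without LFD replicate 2.
Itgam (ENSMUSG00000030786), the alpha chain Cd11b, measured 0.429, 1.08 and 0.141 CPM on LFD, 0.40 and 0.461 CPM on HFD and 0.233, 0.312, 0.0891 and 0.224 CPM on KD. Itgax (ENSMUSG00000030789), the alpha chain Cd11c of islet macrophages and dendritic cells, measured 2.94, 8.92 and 4.97 CPM on LFD, 4.7 and 6.12 CPM on HFD and 2.1, 3.88, 2.76 and 6.18 CPM on KD. Both overlapped between diets, with log2 fold changes of -1.28 and -0.57. Without LFD replicate 2 that of Itgam was -0.30.
Fcgr3 (ENSMUSG00000059498), a low-affinity IgG receptor, measured 4.41, 3.9 and 1.88 CPM on LFD, 4.5 and 3.69 CPM on HFD and 1.01, 1.92, 0.623 and 1.88 CPM on KD. LFD replicate 3 lay inside the KD range, whereas both HFD libraries lay above it. Fcgr3 had a log2 fold change of -1.27 (SE 0.41, edgeR adjusted p 0.104).
Tyrobp (ENSMUSG00000030579), the adaptor Dap12 that signals for Trem2 and other receptors, measured 3.13, 4.7 and 2.91 CPM on LFD, 3.0 and 3.94 CPM on HFD and 1.63, 1.87, 1.25 and 2.82 CPM on KD. Tyrobp had a log2 fold change of -0.89 (SE 0.33, edgeR adjusted p 0.137), with the highest KD library just below the lowest LFD library.
Fcer1g (ENSMUSG00000058715), the signalling gamma chain of Fc receptors, measured 2.15, 2.42 and 2.49 CPM on LFD, 2.8 and 1.89 CPM on HFD and 0.934, 1.96, 1.87 and 1.57 CPM on KD. Fcgr1 (ENSMUSG00000015947), the high-affinity IgG receptor, measured 0.245, 1.21 and 0.938 CPM on LFD, 0.80 and 2.22 CPM on HFD and 0.233, 0.846, 0.178 and 0.717 CPM on KD. Fcer1g had KD libraries all below LFD, Fcgr1 did not, and their log2 fold changes were -0.56 and -0.62.

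The 3 C1q chains, which together form the recognition part of the classical complement pathway, had log2 fold changes nearer to 0 than the members' median, and none passed. C1qa (ENSMUSG00000036887) measured 20.5, 19.9 and 18.4 CPM on LFD, 16.1 and 25.7 CPM on HFD and 11.5, 14.4, 10.4 and 20.2 CPM on KD. C1qb (ENSMUSG00000036905) measured 10.6, 15.6 and 7.32 CPM on LFD, 13.3 and 18.6 CPM on HFD and 8.48, 9.44, 3.92 and 12 CPM on KD. C1qc (ENSMUSG00000036896) measured 8.58, 7.62 and 7.32 CPM on LFD, 7.95 and 9.72 CPM on HFD and 4.98, 4.72, 3.65 and 6.99 CPM on KD. KD replicate 4 was the highest KD library for each chain, inside the LFD range for C1qa and C1qb, and both the C1qa and the C1qb range overlapped. C1qc had a log2 fold change of -0.61 (SE 0.23, edgeR adjusted p 0.144), and those of C1qa and C1qb were -0.46 and -0.39.

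**Figure D4:**
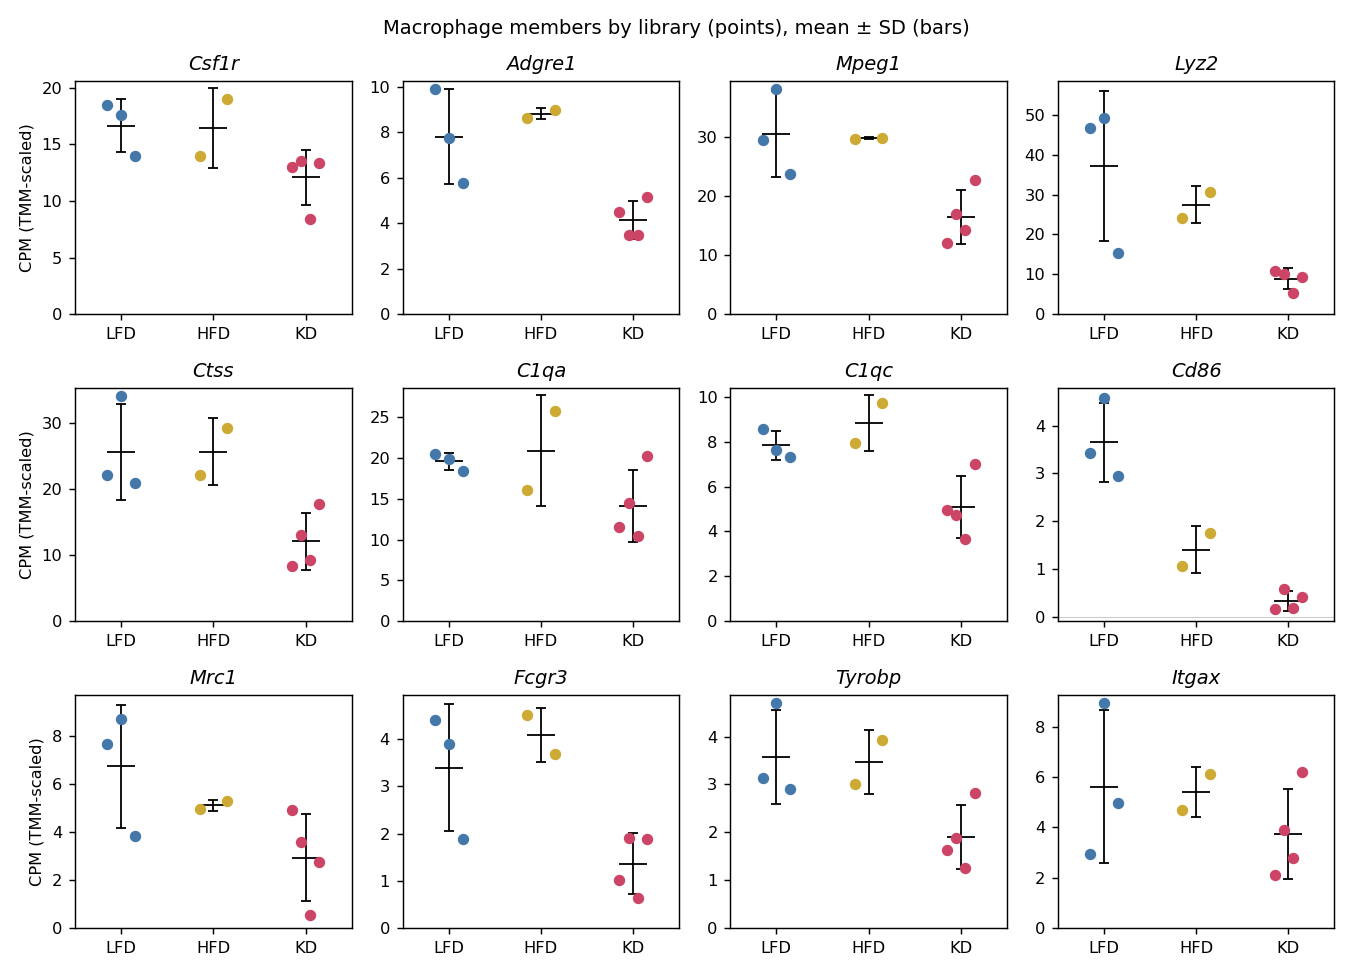
CPM of 12 macrophage members in each library (points) with the mean and SD of each diet (bars), on axes that start at or just under 0. For Mpeg1, Lyz2, Ctss, Cd86 and Adgre1 the 4 KD libraries lie below the 3 LFD libraries, whereas the ranges of Itgax, C1qa and Mrc1 overlap.

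Compared per kilobase of exon, the mean CPM of 8 members exceeded that of all others on each diet. On LFD it was 110 for Cd74, 35.7 for H2-Eb1, 28.2 for Lyz2, 27.0 for H2-Aa, 21.5 for H2-Ab1, 18.9 for both Ctss and C1qa and 10.3 for C1qb. On HFD it was 74.5 for Cd74, 24.3 for H2-Eb1, 20.9 for Lyz2, 20.1 for C1qa, 18.9 for Ctss, 18.3 for H2-Aa, 14.9 for H2-Ab1 and 14.7 for C1qb. On KD it was 46.7 for Cd74, 15.0 for H2-Eb1, 13.6 for C1qa, 9.74 for H2-Ab1, 8.9 for Ctss, 8.69 for H2-Aa, 7.78 for C1qb and 6.81 for Lyz2. Cd74 and H2-Eb1 thus led on every diet, while Lyz2 came next on LFD and HFD and last of the 8 on KD. The next member was Mpeg1 at 7.03 on LFD, 6.87 on HFD and 3.82 on KD. Within a library the class II sum was 1.57, 2.21 and 1.51 on LFD, 1.34 and 1.45 on HFD and 1.4, 1.62, 1.38 and 1.55 on KD times the sum of the other members, so LFD replicate 2 alone stood apart in that ratio. Cd74 over the summed C1q chains was 3.74, 7.06 and 3.06 on LFD, 2.64 and 2.8 on HFD and 2.79, 3.31, 2.8 and 2.53 on KD, and the HFD and KD libraries lay below LFD replicates 1 and 2. H2-Aa over H2-Ab1 in CPM, 2 chains of a single molecule, was 2.42, 1.44 and 2.57 on LFD, 2.25 and 1.51 on HFD and 1.08, 1.41, 1.63 and 1.29 on KD, and LFD replicate 2 and HFD replicate 2 lay within the KD range. The orders and ratios are descriptions with no test.

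On HFD against LFD, 0 of 33 members and 0 of all genes passed (0% called), and DESeq2 and limma-voom called 0 members, where they called 1.44% and 0.0539% of all genes. The smallest edgeR adjusted p among members was 0.397. An unadjusted p below 0.05 was found for 2 members, Ciita and Cd86, both lower, against 6.44% of all genes. Both had HFD libraries below all LFD libraries, where 14.1% of all genes did. Ciita had a log2 fold change of -1.37 (SE 0.46, edgeR adjusted p 0.397) on HFD, which moved to -0.78 without LFD replicate 2, and Cd86 had one of -1.37 (SE 0.49, edgeR adjusted p 0.422). The log2 fold changes of the 31 other members ran from -1.30 for Itgb2 to 0.92 for Trem2, and with those 2 included 23 of 33 were below 0, against 50.2% of all genes. Itgb2 moved to -0.28 without LFD replicate 2, and Trem2 to 0.18 without HFD replicate 2. All 7 class II members were on the lower side and all 3 C1q chains on the higher side, at 0.09, 0.51 and 0.17 for C1qa, C1qb and C1qc. The members' median was -0.32, and without LFD replicate 2 it turned to 0.11, with 12 of 33 values below 0 and H2-Ab1 at 0.19.

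On KD against HFD, 0 of 33 members and 0 of all genes passed by edgeR (0% called), and limma-voom called 0 as well. DESeq2 called 8 members and 8.18% of all genes, and edgeR called 8 members and 9.53% of all genes without KD replicate 4. With 2 HFD libraries, 14 members had an unadjusted p below 0.05, all lower on KD, against 10.6% of all genes. KD and HFD libraries did not overlap for 22 members, all lower on KD, where 18.2% of all genes were. Of the log2 fold changes 32 were below 0, against 53.2% of all genes, and Cd163 at 0.27 was the exception, which turned to -0.39 without KD replicate 1. Their median was -0.85. This comparison and KD against LFD share the KD libraries, so their values are set side by side only.

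In the class II pathway the log2 values against HFD were -1.07 (SE 0.30, edgeR adjusted p 0.124) for H2-Aa. For H2-DMb1 the value was -1.15 (SE 0.38, edgeR adjusted p 0.133). For Ciita it was -0.99 (SE 0.43, edgeR adjusted p 0.203). The other 4 class II members ran from -0.69 for H2-Eb1 to -0.42 for H2-DMa. Among lineage markers Adgre1 had -1.08 (SE 0.26, edgeR adjusted p 0.124). Mpeg1 had -0.84 (SE 0.24, edgeR adjusted p 0.124). Ms4a7 had -1.06 (SE 0.32, edgeR adjusted p 0.125). Its HFD libraries, at 4.15 and 2.85 CPM, included the highest of all.

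Lyz2 had a log2 fold change against HFD of -1.61 (SE 0.41, edgeR adjusted p 0.124), and Ctss one of -1.07 (SE 0.29, edgeR adjusted p 0.124). Cd86 had -1.97 (SE 0.49, edgeR adjusted p 0.124), and Trem2 had -2.18 (SE 0.69, edgeR adjusted p 0.128) from levels of at most 1.51 CPM, which moved to -1.45 without HFD replicate 2. Fcgr3 had -1.54 (SE 0.45, edgeR adjusted p 0.124) and Tyrobp -0.85 (SE 0.36, edgeR adjusted p 0.198). For C1qb the value was -0.90 (SE 0.38, edgeR adjusted p 0.195), with KD libraries below both HFD libraries. For C1qc it was -0.79 (SE 0.25, edgeR adjusted p 0.13). The remaining 19 members with no unadjusted p below 0.05, the 4 class II genes above included, had log2 fold changes from -1.52 for Fcgr1 to 0.27 for Cd163. Without HFD replicate 2 that of Fcgr1 was -0.60.

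Of 16 further genes of the class II pathway, 5 were lower on KD than on LFD and 0 higher, against 3.14% lower and 0.981% higher over all genes. H2-DMb2, the second beta chain gene of H2-DM, measured 4.72, 12.1 and 1.59 CPM on LFD, 0.35 and 0.377 CPM on HFD and 0.233, 0.356, 0 and 0.179 CPM on KD. H2-DMb2 fell with a log2 fold change of -4.83 (SE 0.74, edgeR adjusted p 0.0104). H2-Oa and H2-Ob, the chains of H2-O, a brake on H2-DM known from B cells and some dendritic cells, fell with log2 fold changes of -3.02 and -3.61 (edgeR adjusted p 0.016 and 0.0224). Marchf1, a ubiquitin ligase that removes class II from the surface, fell by 2.13 (adjusted p 0.0253). Cd80, the costimulatory partner of Cd86, fell by 3.82 (adjusted p 0.0398). The median of the 16 was -0.32. None of the RFX subunits Rfx5, Rfxank and Rfxap or of the NF-Y subunits Nfya, Nfyb and Nfyc, which bind the X and Y boxes, passed (Nfya and Nfyc had an unadjusted p below 0.05), and their log2 fold changes ran from -0.48 for Nfyc to 0.36 for Rfxap. Ctsl, Lgmn, Ifi30 and Sppl2a, which process antigen or the invariant chain, did not pass either. Omitting LFD replicates 1 and 2 gave 2 and 1 in place of 5, and omitting KD replicates 1 to 3 gave 3, 3 and 2. Those omissions called 0.938, 1.02, 2.09, 1.08 and 0.814% of all genes in that order.

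In a list of 30 further macrophage genes, 28 were tested, and 10 were lower and 0 higher on KD than on LFD. Over all genes 3.14% were called lower and 0.981% higher. The 6 with the lowest p were Cd53, Ptprc, Cd84, Spp1, Lilrb4a and Cd52. Ptprc, the Cd45 antigen carried by white blood cells of every kind, measured 52.7, 79 and 20.1 CPM on LFD, 18.5 and 12.7 CPM on HFD and 5.84, 5.97, 2.76 and 6.5 CPM on KD. It fell with a log2 fold change of -3.24 (SE 0.44, edgeR adjusted p 0.00802). Cd53, a tetraspanin of leukocytes, fell by 3.38 on the log2 scale (edgeR adjusted p 0.0043), and Cd52, a small antigen of lymphocytes and myeloid cells, by 2.72 (adjusted p 0.019). Cd84, a self-binding receptor of leukocytes, fell by 2.97 (adjusted p 0.00985). Lilrb4a, an inhibitory receptor, fell by 1.99 (adjusted p 0.0185). Spp1, the secreted protein osteopontin, which duct cells make too, fell by 1.16 (adjusted p 0.0115). The median of the 28 was -1.01. Omitting a library gave 4 when it was LFD replicate 1, LFD replicate 2 or KD replicate 3, 5 for KD replicate 2, 6 for KD replicate 1 or either HFD library, and 14 and 11 for LFD replicate 3 and KD replicate 4. The shares of all genes called in these omissions are those given above for the members. For HFD against LFD, 0 of these 28 and 0 of the 16 above passed by edgeR. At an unadjusted p below 0.05, 7 and 7 were lower, against 6.44% of all genes, and 2 and 0 were higher. For KD against HFD, 0 and 0 passed. There 10 and 2 were lower at that p, against 10.6% of all genes, and 1 and 1 were higher.

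Class I presentation, which nearly all cells carry out, gave 2 lower genes of 10 and 0 higher, against 3.14% lower and 0.981% higher over all genes. B2m, the light chain of class I molecules, fell by 1.12 on the log2 scale (edgeR adjusted p 0.0315), and Nlrc5, the class I counterpart of Ciita, by 2.13 (adjusted p 0.0115). The heavy chain genes H2-K1 and H2-D1 had log2 fold changes of -0.18 and -0.16 and did not pass. H2-K1 measured 193, 255 and 152 CPM on LFD, 197 and 242 CPM on HFD and 147, 185, 143 and 230.0 CPM on KD, and the diets overlapped.

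Lists of genes of other blood cells differed in how many of their members were lower on KD, where 3.14% of all genes were called lower and 0.981% higher. All 13 B cell genes were lower on KD than on LFD, with a median log2 fold change of -6.04, and none was at 0 in every library of a diet. The 3 with the highest level were Ighm, Ms4a1 and Bank1. Ighm, the heavy chain of IgM, measured 453, 1125 and 44 CPM on LFD, 53 and 69.6 CPM on HFD and 23.7, 8.69, 5.25 and 10.4 CPM on KD. Ms4a1, the Cd20 antigen, measured 20.2, 23.7 and 3.71 CPM on LFD, 0 and 0.754 CPM on HFD and 0.156, 0.0446, 0 and 0 CPM on KD. Bank1, a B cell adaptor, measured 19.8, 19.5 and 4.08 CPM on LFD, 0.10 and 0.88 CPM on HFD and 0.233, 0.267, 0.0891 and 0.0896 CPM on KD. All 13 also had an unadjusted p below 0.05 on HFD against LFD, lower on HFD, against 6.44% of all genes. None of them passed the adjusted threshold there. LFD replicates 1 and 2 held most of these transcripts. In LFD replicate 3 Ighm was below both HFD libraries, whereas for the other 12 genes both HFD libraries lay below all LFD libraries. The same held for 14.1% of all genes.
Of 8 T cell genes 6 were lower on KD than on LFD, with summed CPM of 11.6, 33.6 and 4.69 on LFD and between 0.623 and 1.79 on KD. Monocyte genes gave 3 lower of 5 tested, among them Vcan, a matrix proteoglycan, at -0.89 (edgeR adjusted p 0.0438), while F13a1 and Ccr2 did not pass. Dendritic cell genes gave 1 lower of 9 tested, Ccr7 at -6.46 (edgeR adjusted p 0.0135), and 8 of the 9 values were below 0. Zbtb46 at 0.24 and Fscn1 at -0.04 did not pass. Ccr7 measured 4.23, 11.4 and 0.938 CPM on LFD, 0.10 and 0.377 CPM on HFD and 0, 0, 0 and 0.179 CPM on KD. It was highest in LFD replicate 2, as the B and T cell sums were. For neutrophils 0 of 2 tested passed, and of their 7 genes 3 were at 0 in all KD libraries, 1 in all LFD and 1 in all HFD libraries. For the lists of endothelial and fibroblast genes, 6 each, and of 9 islet genes, 0 passed by edgeR, with 2, 5 and 1 at an unadjusted p below 0.05. The 5 fibroblast genes were all lower on KD, where 11.9% of all genes were lower at that p. Of the 30 acinar genes 1 passed, lower on KD, and 18 were higher at an unadjusted p below 0.05. The bearing of each of these cell types on the members was not tested.

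How far B cells account for the members' values was not tested, since B cell transcripts moved with diet. In an edgeR fit with the B cell score of each library as a covariate, 0 members and 0 of all genes passed for KD against LFD, and the members' median log2 fold change was 0.93. Of the variance of that score, 91.8% lay between the diets, so the score and the diet cannot be told apart in this fit. A comparison added after the data had been seen kept LFD replicate 3 as the only LFD library. That lone library is assumed to vary like the others, since only the HFD and KD libraries then set the spread. There 0.135% of all genes and 0 members passed, so nothing can be read from the members' count. In that fit 26 of 33 log2 fold changes were below 0 and their median was -0.36. The ratio of KD to LFD means was 0.397 for the class II sum and 0.487 for the sum of the other members, and against LFD replicate 3 alone the ratios were 0.728 and 0.730. With the acinar score as a covariate, 9 members passed, against 8.41% of all genes. With KD replicates 2 and 4, the KD libraries with the least acinar transcripts, as the only KD libraries, an addition of the same kind, 1 member passed, Cd86, where 0.345% of all genes were called. All 33 values were below 0 there.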

How the data were processed

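RNA was sequenced from islets of mice on 3 diets, with 3 LFD, 2 HFD and 4 KD libraries grouped by the diet in their titles. The authors deposited raw counts per Ensembl gene. The submitters' processing notes name cutadapt 1.16, STAR 2.7.9a, featureCounts 1.6.3, DESeq2 1.40.2 and the build GRCm39 (also written mm39), with no role for each. The annotation release, the strand setting and the treatment of shared reads are not given in the sources used here. Per the labels' protocols, polyadenylated RNA was made into strand-specific libraries.

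Symbols came from the supplied gene tables, which matched 51948 of 56941 identifiers. Counts were analysed in R 4.3.3 with edgeR 4.0.16: genes were kept by filterByExpr, libraries were scaled by TMM, and all 9 libraries were fitted by diet with the quasi-likelihood model. All tests were two-sided, with Benjamini-Hochberg adjustment of p over 18548 genes. Standard errors are the size of the fold change over the square root of F. Exon lengths are those of all annotated exons of a gene merged, from GENCODE M21. At these depths the 95% Wilson interval of a library's acinar share had a half-width of no more than 0.0239 points, which covers counting error only. Libraries of a diet correlated at 0.941 to 0.975 in log2 CPM (prior count 2), taken over genes, which do not count as replicates. Libraries of different diets correlated at 0.926 to 0.969, so the 2 ranges overlapped. LFD replicate 3 correlated at 0.962 with each HFD library, and at 0.950 and 0.941 with LFD replicates 1 and 2.

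All members were named, with fold change, SE and adjusted p where the unadjusted p was below 0.05. From the pathway and macrophage lists the genes past the threshold were named, up to the 6 with the lowest p, and from lists of other cell types the 3 with the highest CPM; other genes named were picked after their values were seen. The members and the lists were chosen with earlier results of these data known. The alternatives were DESeq2 size factors, TMM with acinar and hormone genes left out, DESeq2 1.42.0 (Wald test), limma 3.58.1 (voom), no filter, a fit of only the groups compared, acinar and B cell scores as covariates, the replicate number as a block and the omission of each library. Fits with LFD replicate 3 as the only LFD library and with KD replicates 2 and 4 as the only KD libraries were added after the data were seen. A score is the mean log2 CPM of a list. The procedure was tested on simulated data.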

Additional observations from a re-analysis of the deposited data

Results flagged for a closer look

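Among the 34 members, 2 had a library that stood apart from the other libraries of its diet, by the size of its gap to the nearest one relative to the range of the group. Only KD, with 4 libraries, was examined this way, and the LFD and HFD libraries, LFD replicate 2 among them, were not. Csf1r measured 8.46 CPM in KD replicate 3, where the other 3 KD libraries lay between 13 and 13.5 CPM. Vsig4 measured 0.0778 CPM in KD replicate 1, which is 1 count, and 0 in the other 3. Chance marks about 1 in 20 such groups, a share that does not apply to Vsig4, where 1 count among zeros gives the largest possible ratio.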

How the results depend on the processing

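The direction of the members' median for KD against LFD held under every alternative run except the B cell covariate. The members past the threshold there numbered 15 with DESeq2, 14 with limma-voom, 18 with the replicate block, 0 with the B cell score as a covariate, 0 with LFD replicate 3 as the only LFD library and 1 with KD replicates 2 and 4 as the only KD libraries, the last 2 of these added after seeing the data. Those fits called 9.56, 10.1, 10.8, 0, 0.135 and 0.345% of all genes in that order. Omitting 1 library gave 2 to 15 members, with 0.814 to 7.24% of all genes. For HFD against LFD the replicate block called 1 member and 2.13% of all genes, and the omissions called 0 members. For KD against HFD, DESeq2 called 8, the unfiltered fit 1, the replicate block 10 and the omissions 0 to 8, against 8.18, 1.02, 12.5 and 0 to 9.53% of all genes. The further class II genes past the threshold numbered 0 with the B cell covariate, 0 in both added comparisons and 1 to 6 over the omissions. The further macrophage genes numbered 6 in the fit of only the groups compared, 0 with the B cell covariate, 0 and 1 in the added comparisons and 4 to 14 over the omissions. The fit of only the groups compared called 3.01% of all genes. The members' median log2 fold change was 0.93 with the B cell covariate, -0.36 against LFD replicate 3 alone and -1.30 to -0.64 over the omissions. The ratio of KD to LFD sums was 0.324 to 0.565 for class II and 0.417 to 0.582 for the other members over the omissions, and 0.728 and 0.730 against LFD replicate 3 alone.

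With the B cell covariate, 29 of 33 members changed sign for KD against LFD, and the cause was not tested. Of the variance of that score 91.8% lay between the diets, and 0 of all genes passed in that fit. The values from it are therefore not read as rises on KD. Ms4a7, Trem2, Cd86 and Fcer1g stayed below 0. Of the 21 members with an unadjusted p below 0.05 in the edgeR test of the report, 20 changed sign, to log2 fold changes of 2.14 for Cd74, 0.71 for H2-Aa, 3.11 for H2-Ab1, 2.33 for H2-Eb1, 1.45 for H2-DMa, 0.68 for H2-DMb1, 0.41 for Ciita, 0.66 for Csf1r, 0.24 for Adgre1, 0.50 for Mpeg1, 3.15 for Laptm5, 1.67 for Mrc1, 0.48 for Cd14, 2.43 for Clec7a, 2.93 for Itgb2, 0.93 for Fcgr3, 0.85 for Tyrobp, 0.089 for C1qc, 1.56 for Lyz2 and 0.57 for Ctss. Ciita on HFD against LFD was 0.80 in that fit. H2-Ab1 was 0.062 against LFD replicate 3 alone. Same-numbered LFD and KD libraries correlated at 0.222, -0.016 and -0.003 in their deviations from the diet means. Same-numbered pairs with HFD gave 0.069 and 0.075 for LFD and 0.038 and 0.081 for KD. LFD replicate 3 and KD replicate 4 reached 0.238, so not every library correlated best with its own number. The labels do not say whether the numbers pair the samples, and so few libraries cannot decide it. Levels under 1 CPM rest on few counts, and the number of libraries limits each test.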
